A study of Rattus norvegicus with 16 samples.

Results

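Transcript levels in the rat dentate gyrus were compared between the group labelled 24 h (2 arrays) and the naive group (3 arrays), 5 of the 16 arrays of the series. The arrays were chosen by label alone, and the comparison runs over all measured genes, while the gene lists were drawn up with earlier results of these data known. Total RNA was hybridised to Affymetrix RGU34A, a rat expression array on which a set of short probes reports on 1 transcript, with 1 array per sample. The other 11 arrays carry the labels 0 h, 2 h, 3 h, 6 h and 12 h and serve here as a second point of comparison. Every label, those of the naive arrays included, names rats trained in passive avoidance, and no label says from which event the hours count. Naive is read here as untrained, and trained is used for the rest. The labels used here give no strain, sex or age and do not mention pooling. They also leave unsaid whether replicate arrays are separate animals. The p-values below therefore refer to the spread among these arrays, some of which may be technical.

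In passive avoidance a rat learns from an aversive event to stay out of the place where it happened, and the hippocampus takes part in that memory. The dentate gyrus is the entry station of the hippocampus: its granule neurons receive cortical input and excite pyramidal neurons of the next field. Around them lie astrocytes, oligodendrocytes, which wrap axons in myelin, and blood vessels. The choroid plexus, which secretes cerebrospinal fluid, and the meninges, which cover the brain, adjoin this tissue without belonging to it.

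Levels are given as log2 of the scaled intensity, so a difference of 1 is a 2-fold difference, and values cannot fall under a lowest level of 2.34. The 24 h arrays correlated with each other at r = 0.967, naive pairs at 0.944 to 0.956, and 24 h with naive arrays at 0.930 to 0.960, over all probe sets. Before scaling, trimmed mean intensities were 117 and 170 on the 24 h arrays, against 127, 113 and 143 on the naive arrays. The beta-actin control's 3'/5' ratio, which is higher when labelled transcripts are shorter, was 1.85 and 1.78 on the 24 h arrays, against 1.70, 1.49 and 1.70 on the naive arrays. Both 24 h ratios lay above the 3 naive ones, and the part of this ratio in the results below was not tested. The same ratio for Gapdh was 1.15 on both 24 h arrays, against 1.12, 1.25 and 1.28 on the naive arrays, where the groups overlapped. On 3 h replicate 1 the beta-actin and Gapdh ratios were 1.505 and 1.13, below both 24 h arrays. On the rest of the trained arrays both ratios lay above both 24 h arrays, at 1.92 to 2.80 for beta-actin and 1.21 to 2.04 for Gapdh.

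The granule neuron markers were compared first, though a difference between groups does not tell which tissue was dissected. Of 6 listed markers on the array, 5 passed the filter on low values, and their median difference between 24 h and naive was 0.0039. That median is the difference of Pdyn alone, and it took the other sign in 4 of 28 alternative settings. Calb1, which encodes the calcium buffer calbindin, stood at 8.63 and 8.55 on the 24 h arrays, against 8.17, 8.42 and 8.73 on the naive arrays. Pdyn, the precursor of the dynorphin peptides stored in mossy fibres, was at 8.54 and 8.30 on the 24 h arrays, against 8.41, 8.22 and 8.61 on the naive arrays. For both genes the 24 h and naive arrays overlapped. The differences of the other markers were -0.43 for Neurod2 and -0.19 for Neurod1, neuronal transcription factors, and 0.54 for the neurotrophin Bdnf, with unadjusted p of 0.12 to 0.458 by limma. Neurod2 and Neurod1 were lower without overlap, 2 of the 5 tested markers, against 10.2% of all tested genes. Bdnf was higher without overlap, 1 of the 5, against 9.68%. Probe sets of Neurod1 and Bdnf disagreed in sign: a second one gave 0.11 for Neurod1, and the 7 of Bdnf ran from -1.004 to 0.54.

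Ttr and Enpp2, markers of choroid plexus, and Mal, a myelin gene, were the named genes with the smallest p, all lower at 24 h. Of 6220 probe sets tested, 0 passed limma's test at an adjusted p of 0.05 (percent called 0), and the smallest adjusted p, 0.0835, was shared by 5 probe sets. These were Ttr, Enpp2, Mal and 2 probe sets to which the annotation gives several genes and which are left unnamed. An unadjusted p under 0.05 was reached by 276 probe sets (4.44%), where chance gives 311. They were unevenly divided: 60 were higher (0.965% of the tested probe sets) and 216 lower (3.47%). The higher ones made up 21.7% of these, a share that became 32.8% with quantile normalization and 35.1% when arrays were scaled to one median. Differences over 1 in size were 53 above and 199 below naive. The 24 h and naive arrays did not overlap for 551 probe sets higher at 24 h (8.86%) and 733 lower (11.8%). Over all tested probe sets, 49.5% were above and 50.5% below naive, with a median difference of -0.0044.

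**Figure D1:**
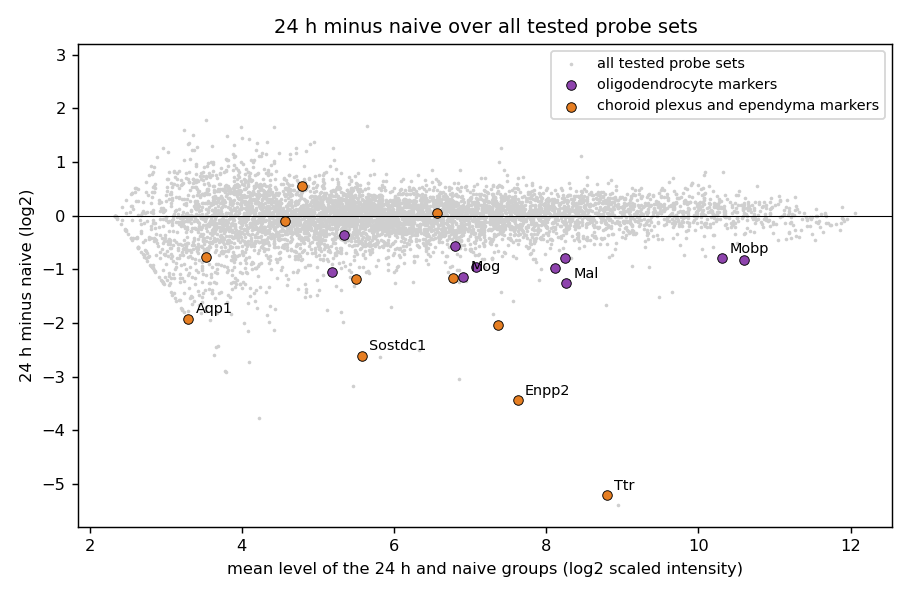
Each point is a tested probe set, with the mean level of the 24 h and naive groups (log2 scaled intensity) on the x axis and the 24 h minus naive difference (log2) on the y axis; purple and orange points are the oligodendrocyte markers and the choroid plexus and ependyma markers, 1 probe set a gene. The grey cloud is centred at -0.0044, the 10 purple points lie between -1.26 and -0.35, and the lowest orange point is Ttr at -5.21.

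The absence of calls rests on few arrays and on the setting. Leaving out naive replicate 1 gave 12 passing probe sets, all lower at 24 h: they covered Ttr, Enpp2 (2 probe sets), Igfbp2, Slc4a2, Prlr, Sostdc1, Igf2, Ace, Msx1, Scgb1c1 and 1 probe set with several genes. A fit to the 24 h and naive arrays alone gave 4, array weights gave 6 and testing 1 probe set per gene gave 3, Ttr, Enpp2 and Mal, each at an adjusted p of 0.04996. Leaving out 24 h replicate 2 gave 1 (Dock9), leaving out either 0 h array gave 2 each (both Ttr), and leaving out either 2 h array gave 4 each, among them Ttr and Lcat. Below, "higher" and "lower" therefore describe measured levels and no gene is said to have changed.

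Oligodendrocyte genes were lower at 24 h as a group. Myelin is a stack of oligodendrocyte membrane rich in galactolipids and held together by a small set of proteins, many of which are made by these cells alone in the brain. The 10 listed genes on the array all passed the filter, and all 10 were below naive, where 47.6% of 3678 tested genes were. With 1 probe set per gene, 8 of the 10 were lower at an unadjusted p under 0.05, against 2.85% of all tested genes, and for 8 of the 10 the arrays did not overlap, against 10.2% of all tested genes. The list's median difference was -0.89, where the median of all tested genes was 0.016. Of the 15 probe sets of these genes, 15 were below naive and 13 did not overlap. The summed level of the 10 genes in linear scaled intensity was 2984 and 3217 on the 24 h arrays, against 5923, 4717 and 6389 on the naive arrays. In tissue RNA, fewer cells of a type and less RNA per cell cannot be told apart.

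The upstream sequences of the 3 oligodendrocyte genes with the smallest p are printed because 24 h levels of these genes were low together. They are the 250 bases before the annotated start of each gene, from RefSeq on build GRCr8, all on the minus strand and written 5′ to 3′ in the direction of the gene. Capitals mark matches to ACAANG, a short core that Sox transcription factors bind, searched on both strands; a match on the opposite strand reads CNTTGT.
Mal, chr3:135341424-135341673: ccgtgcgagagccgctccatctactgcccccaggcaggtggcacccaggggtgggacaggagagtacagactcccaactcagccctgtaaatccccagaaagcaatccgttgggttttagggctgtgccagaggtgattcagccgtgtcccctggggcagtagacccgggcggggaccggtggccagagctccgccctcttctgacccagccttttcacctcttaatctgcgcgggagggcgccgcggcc
Mag, chr1:95291045-95291294: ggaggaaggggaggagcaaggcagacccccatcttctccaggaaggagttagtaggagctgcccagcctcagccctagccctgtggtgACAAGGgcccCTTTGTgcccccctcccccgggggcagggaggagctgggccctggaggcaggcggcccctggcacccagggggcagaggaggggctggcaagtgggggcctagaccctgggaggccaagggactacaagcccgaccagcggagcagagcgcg
Ugt8, chr2:217007168-217007417: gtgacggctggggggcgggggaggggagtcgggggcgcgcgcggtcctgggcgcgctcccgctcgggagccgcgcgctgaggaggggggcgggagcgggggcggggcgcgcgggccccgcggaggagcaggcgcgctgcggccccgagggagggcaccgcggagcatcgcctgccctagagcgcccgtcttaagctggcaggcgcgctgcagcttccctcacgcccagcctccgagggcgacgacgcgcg
The window of Mag held 2 matches and those of Mal and Ugt8 held 0. RefSeq windows were found for 8 of the 10 oligodendrocyte genes, and 3 of them held a match (Mag, Mobp and Cnp), where 36.9% of all 33469 windows did. CANNTG, the E-box, was in 6 of 8 against 65.5% of all windows, GGGCGG, the GC box, in 4 of 8 against 30.5%, CCAAT in 1 of 8 against 34.02%, and TATAAA in 0 of 8 against 12.9%. These are counts of letters in a window and say nothing of binding.

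Mal, a membrane protein of compact myelin that sorts lipids and proteins, stood at 7.43 and 7.83 on the 24 h arrays, against 8.77, 8.69 and 9.20 on the naive arrays. The groups did not overlap, and Mal was 2.39-fold lower (difference -1.26, SE 0.23, limma adjusted p = 0.0835). Mag, an adhesion protein on the myelin face next to the axon, was at 6.63 and 6.58 on the 24 h arrays, against 7.64, 7.52 and 7.496 on the naive arrays. It did not overlap and was 1.93-fold lower (-0.95, SE 0.24, adjusted p = 0.323); a second probe set gave -0.54. Ugt8, the enzyme that makes the myelin lipid galactosylceramide, was at 7.74 and 7.53 on the 24 h arrays, against 8.65, 8.47 and 8.69 on the naive arrays (-0.97, SE 0.25). Mog, on the outermost myelin layer, was at 6.51 and 6.17 on the 24 h arrays, against 7.72, 7.21 and 7.49 on the naive arrays (-1.14, SE 0.33), and its second probe set gave -1.26. Here too neither gene's groups overlapped.

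Other genes of compact and uncompacted myelin were lower as well. Mbp, whose product holds the inner membrane faces together, was at 10.14 and 10.22 on the 24 h arrays, against 11.13, 10.58 and 11.33 on the naive arrays (-0.83, SE 0.28). Mobp, another protein of compact myelin, was at 9.80 and 10.04 on the 24 h arrays, against 10.73, 10.59 and 10.80 on the naive arrays, and its 4 probe sets gave differences of -0.79 to -1.42. Cnp, an enzyme of uncompacted myelin, was at 7.84 and 7.87 on the 24 h arrays, against 8.91, 8.46 and 8.56 on the naive arrays (-0.79, SE 0.23). None of these 3 overlapped. Gjb1, a gap junction protein between myelin layers, overlapped, with 5.43 and 3.87 on the 24 h arrays and 5.75, 4.82 and 6.55 on the naive arrays. Its difference of -1.05 was -0.28 without 24 h replicate 2, -1.83 without 24 h replicate 1 and -0.63 without naive replicate 3. The members without an unadjusted p under 0.05 were Pllp, a myelin membrane protein (-0.57, SE 0.28), and Sox10, a transcription factor of the lineage (-0.35, SE 0.40).

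**Figure D2:**
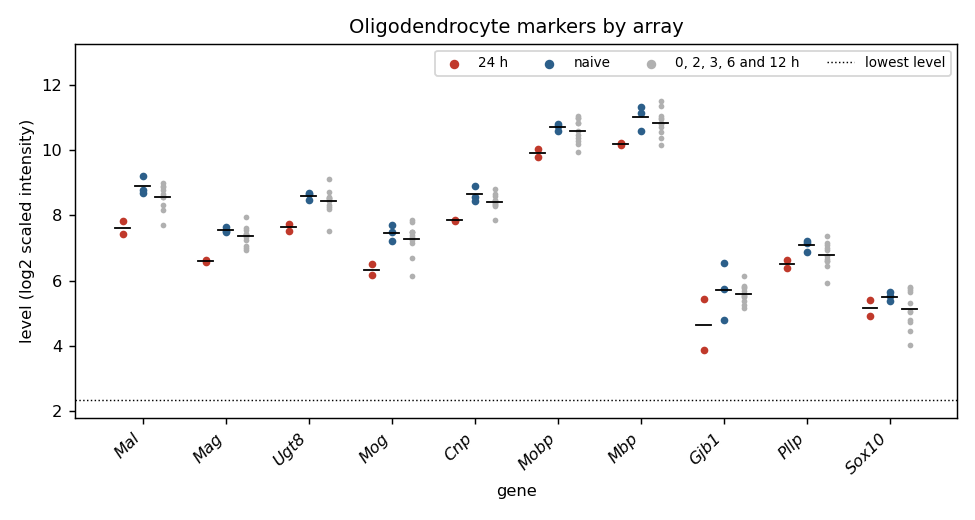
Levels (log2 scaled intensity, y axis) of the 10 oligodendrocyte markers (x axis) on each array, with 24 h in red, naive in blue and the 11 other trained arrays in grey; bars are means and the dotted line is the lowest level of 2.34. For Mal the red points lie at 7.43 and 7.83 and the blue points at 8.69 to 9.20, and only Gjb1 and Sox10 overlap between red and blue.

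The same genes stood low against the other trained arrays. That difference takes no naive level but shares the 24 h arrays, and the fit over all 7 groups draws its spread from the naive arrays too. The control 3'/5' ratios were higher on the other trained arrays than at 24 h, except on 3 h replicate 1, and their part was not tested. At an unadjusted p under 0.05, 102 of 3678 genes (2.77%) were lower and 78 (2.12%) higher at 24 h than over the equal-weight mean of 0 h, 2 h, 3 h, 6 h and 12 h, and 0 of 6220 probe sets passed adjustment by limma (smallest adjusted p 0.152). Over probe sets, 330 had an unadjusted p under 0.05 (5.31%), 127 of them higher (2.04%) and 203 lower (3.26%). Among the 10 oligodendrocyte genes, 8 were lower at that p, 9 were below, where 49% of all tested genes were, and the median difference was -0.73. Mal differed by -0.92 (SE 0.19, adjusted p = 0.221) and Mag by -0.77 (SE 0.20, adjusted p = 0.361). On both 24 h arrays this Mag probe set lay below all 11 other trained arrays. It was the only 1 of the 15 oligodendrocyte probe sets to do so, against 1.46% of all tested probe sets. Mag ranged from 6.93 to 7.97 on the other trained arrays, with a median of 7.42. Mal ranged from 7.70 to 9.01 there, and its lowest trained array, 2 h replicate 1 at 7.70, lay under 24 h replicate 2.

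Set against the same 3 naive arrays, each trained group had its own Mal difference: 0.06 at 0 h, -0.95 at 2 h, -0.18 at 3 h, -0.31 at 6 h, -0.30 at 12 h and -1.26 at 24 h. For Mag these were -0.22, -0.34, -0.35, -0.22, 0.22 and -0.95 in the same order. The mean deviation of the 10 genes from their average over 16 arrays was -0.58 and -0.65 on the 24 h arrays, against 0.33, 0.01 and 0.43 on the naive arrays. One other array was nearly as low, 2 h replicate 1 at -0.57, while 2 h replicate 2 was at 0.02.

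Choroid plexus markers showed the widest gaps of any list, with a wide spread among naive arrays. Of 13 listed choroid plexus and ependyma genes on the array, 11 passed the filter, 9 of them below naive, where 47.6% of all tested genes were. At an unadjusted p under 0.05, 7 were lower, against 2.85% of all tested genes, and 5 did not overlap in that direction, against 10.2%. The median difference was -1.19. The summed level of the 11 genes in linear scaled intensity was 533 and 486 on the 24 h arrays, against 2449, 5454 and 6066 on the naive arrays, and 549 to 4899 over the other trained arrays. Naive replicate 1 lay apart from the other naive arrays, with a mean deviation over the list of 0.0090 against 1.65 and 1.40 on naive replicates 2 and 3, and the 24 h arrays were at -0.44 and -0.76. Most of these genes are known chiefly from tissue that adjoins the dentate gyrus, and the part of that tissue in any result here was not tested.

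Ttr encodes transthyretin, the thyroid hormone carrier that is the chief secretory product of the choroid plexus. It stood at 6.19 and 6.20 on the 24 h arrays, against 10.80, 11.48 and 11.94 on the naive arrays. The groups were widely separated, at 37.1-fold lower (-5.21, SE 0.93, limma adjusted p = 0.0835), and a second probe set gave -5.40. Enpp2 encodes autotaxin, a secreted lipid-cleaving enzyme that oligodendrocytes also make. It was at 5.97 and 5.84 on the 24 h arrays, against 8.04, 10.10 and 9.91 on the naive arrays, 10.9-fold lower (-3.44, SE 0.65, adjusted p = 0.0835). Its second probe set gave -3.05. Over the other trained arrays Ttr ranged from 6.14 to 11.96 and Enpp2 from 4.44 to 8.97, so the low 24 h levels lay within the trained range for both. Against those arrays Ttr differed by -2.32 (SE 0.79) and Enpp2 by -1.16 (SE 0.55), with limma adjusted p of 0.653 and 0.877.

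For other choroid plexus genes naive replicate 1 lay nearest to the 24 h arrays. Sostdc1, a secreted inhibitor of BMP and Wnt signalling, was at 4.87 and 3.69 on the 24 h arrays, against 4.87, 8.01 and 7.78 on the naive arrays, so naive replicate 1 stood with the 24 h arrays (-2.61, SE 0.73). Aqp1, a water channel, was at the lowest level on both 24 h arrays and on naive replicate 1, against 5.50 and 4.93 on naive replicates 2 and 3. Igf2, a growth factor of choroid plexus and meninges, was at 6.25 and 6.44 on the 24 h arrays, against 6.99, 9.27 and 8.90 on the naive arrays (-2.04, SE 0.57). Its 3 other probe sets showed little of this, at -0.04, -0.13 and -0.28. Igfbp2, which binds such growth factors, was at 5.05 and 5.11 on the 24 h arrays, against 5.96, 8.69 and 8.10 on the naive arrays (-2.50, SE 0.61), with -3.18 and -1.16 by other probe sets.

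Probe sets at the lowest level give a bound only. Slc4a2, an anion exchanger, was at the lowest level on both 24 h arrays by 1 probe set, at least 7.42-fold lower, and -1.19 by another. Prlr, the prolactin receptor, was at least 7.55-fold lower by 1 probe set, against 3.86, 6.33 and 5.56 on the naive arrays, but -0.40 and 0.55 by the others. Kl, the ageing-related hormone co-receptor klotho, and Calml4, a calmodulin-like protein, were near 0 (-0.09 and 0.06), and the serotonin receptor gene Htr2c was -0.77 with overlap. With the lowest level at the pooled 40th percentile, the low Prlr probe set differed by -1.24, Aqp1 by -0.76, Htr2c by -0.34 and the meningeal gene Lum by -0.36.

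**Figure D3:**
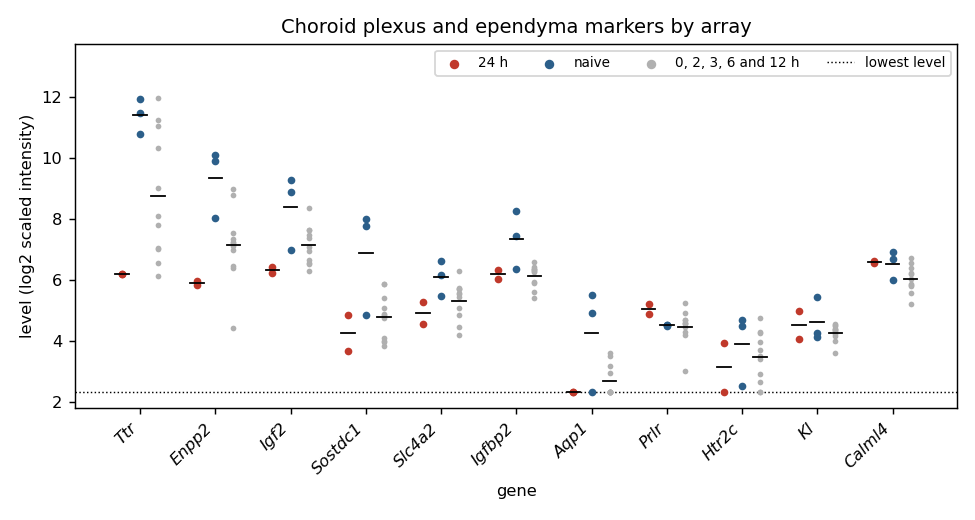
Levels (log2 scaled intensity, y axis) of the 11 tested choroid plexus and ependyma markers (x axis) on each array, by the probe set with the highest mean, with 24 h in red, naive in blue and the other trained arrays in grey; bars are means and the dotted line is the lowest level of 2.34. Ttr lies at 6.19 and 6.20 in red and 10.80 to 11.94 in blue, while the grey points run from 6.14 to 11.96.

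Other cells of the coverings and vessels gave smaller gaps in the same direction. Of 13 tested meningeal and fibroblast genes 12 were below naive, with a median of -0.77 and 2 at an unadjusted p under 0.05, against 2.85% of all tested genes. Igf2, 1 of those 2, is also counted in the choroid plexus list. With the lowest level at the pooled 40th percentile the median of the genes was -0.36. Over all 24 probe sets of these genes the median was -0.34. Their summed level in linear scaled intensity was 621 and 540 on the 24 h arrays, against 821, 2341 and 1726 on the naive arrays. Ptgds, a prostaglandin synthase that is also a carrier protein of cerebrospinal fluid and is made by meninges, choroid plexus and oligodendrocytes, was at 8.24 and 7.66 on the 24 h arrays, against 8.77, 10.38 and 9.69 on the naive arrays (-1.67, SE 0.55). It lay below all 11 other trained arrays as well (8.40 to 10.77). The matrix genes Lum and Col1a1 were -0.77 and -0.86 with overlap, and 3 further Col1a1 probe sets ran from -0.17 to 0.07. Of 12 endothelial and mural genes 7 were below naive (median -0.43, or -0.22 with the lowest level at the pooled 40th percentile), led by Myh11, the smooth muscle myosin, at 2.34 and 2.88 on the 24 h arrays, against 4.26, 4.22 and 4.33 on the naive arrays. Its difference of -1.66 was -0.19 when the lowest level was set at the pooled 40th percentile. Against the other trained arrays, the smooth muscle genes Myh11 (-1.55), Acta2 (-1.304) and Tagln (-0.95) had limma unadjusted p of 0.00495, 0.00924 and 0.00326. The glucose transporter of the endothelium, Slc2a1, was -0.59 against naive.

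Astrocyte and pyramidal neuron markers lay somewhat below naive, and microglial and blood markers had medians near 0. Astrocyte genes had a median of -0.14, with 9 of 13 below, where 47.6% of all tested genes were. At an unadjusted p under 0.05 by limma, 2 were lower, against 2.85% of all tested genes. Without overlap, 5 were lower and 1 higher, against 10.2% and 9.68%. The astrocyte list's mean deviation was -0.32 and -0.24 on the 24 h arrays, against -0.09, -0.01 and 0.22 on the naive arrays. Among the defining genes, the glutamate transporter Slc1a3 was at -0.14, glutamine synthetase Glul at -0.21, S100b at -0.15 and Aldoc at 0.10. The water channel Aqp4 was at 4.03 and 4.34 on the 24 h arrays, against 5.14, 4.59 and 6.66 on the naive arrays (-1.28, SE 0.57; -0.68 without naive replicate 3), and the intermediate filament gene Vim at 5.34 and 5.62, against 6.23, 6.57 and 6.78 on the naive arrays (-1.04, SE 0.47). Microglial genes had a median of 0.013 (5 of 10 below) and blood cell genes 0.025 (1 of 5 below). Cd74, the chaperone of class II antigen presentation, was lowest among the microglial genes at -1.53, with 24 h replicate 1 at the lowest level. Interneuron genes had a median of -0.10 and the 4 tested pyramidal neuron genes -0.41. Of those 4, 2 were lower without overlap, against 10.2% of all tested genes. The pyramidal list's mean deviation was -0.29 and -0.21 on the 24 h arrays, against 0.05, 0.07 and 0.30 on the naive arrays. Among the pyramidal genes Nptx1, a synaptic pentraxin, was -0.64 (SE 0.26). Of 3 tested thalamus genes 2 were below naive.

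**Figure D4:**
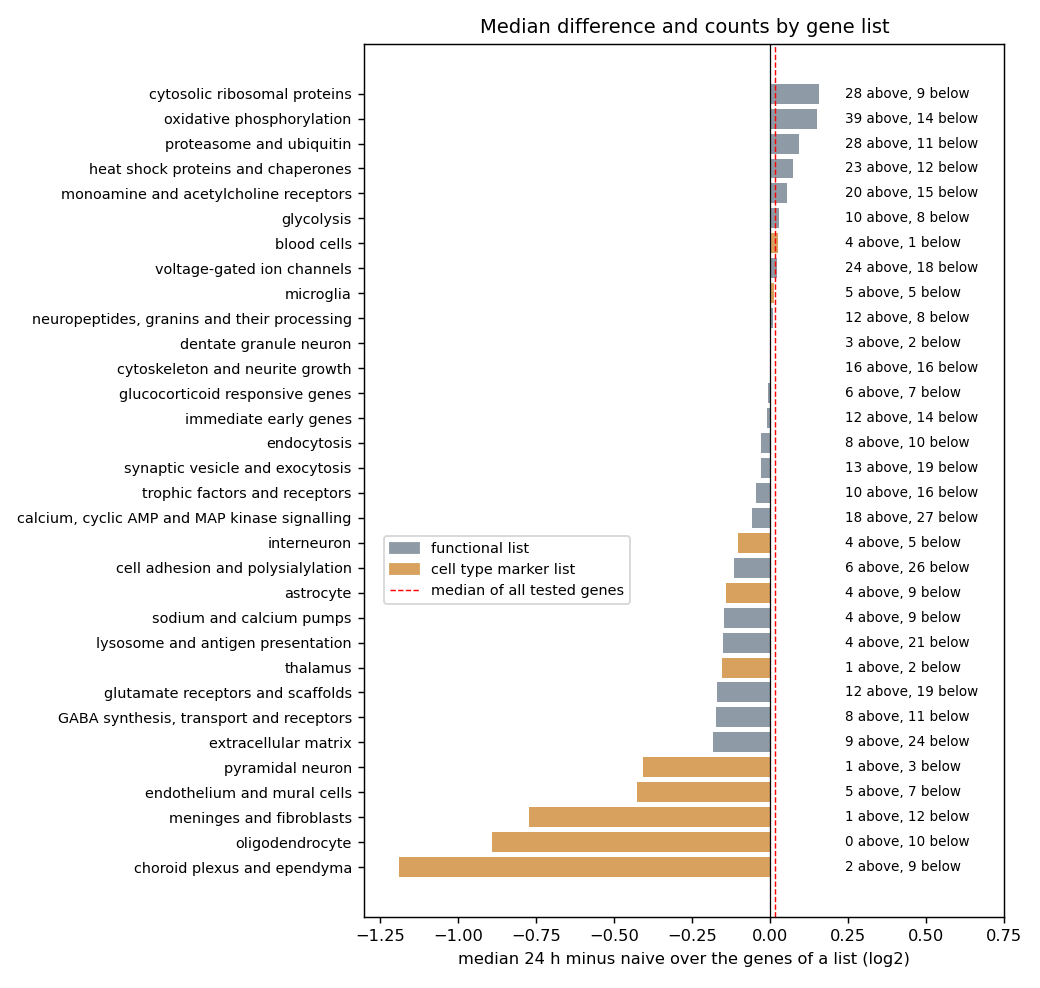
Bars give the median 24 h minus naive difference (log2, x axis) over the tested genes of each list (y axis), grey for functional lists and tan for cell type markers; the red dashed line is the median of all tested genes, 0.016, and the numbers count genes above and below naive. The lowest bars are the choroid plexus (-1.19), oligodendrocyte (-0.89) and meningeal (-0.77) lists, and the highest is the ribosomal protein list at 0.16.

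Outside these lists, genes with the smallest p among the lower ones included P2rx6, Dock9 and Kcnc2. P2rx6, a subunit of ATP-gated channels, was at 3.29 and 3.46 on the 24 h arrays, against 5.20, 5.16 and 4.55 on the naive arrays, 3.03-fold lower (-1.60, SE 0.35, limma adjusted p = 0.197). It lay below all 11 other trained arrays too (3.94 to 5.41; -1.33, SE 0.29). Against naive, P2rx6 was -0.89 when the lowest level was set at the pooled 40th percentile. Dock9 was at 6.00 and 7.53 on the 24 h arrays, against 8.58, 8.67 and 7.82 on the naive arrays (-1.59, SE 0.36, adjusted p = 0.225). Both 24 h arrays lay below the other trained arrays (7.77 to 8.66), where the difference of -1.56 had the smallest adjusted p of that comparison, 0.152. The size rested on 1 array: Dock9 against naive was -0.83 without 24 h replicate 1 and -2.36 without 24 h replicate 2. Kcnc2, a potassium channel of fast-firing interneurons, was -1.98 (SE 0.47), with -1.44 and -0.40 by other probe sets, -1.25 without 24 h replicate 1 and -1.26 with the lowest level at the pooled 40th percentile.

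Several leading lower genes were near the lowest level at 24 h. Scgb1c1, a small secreted protein, was at 2.34 on both 24 h arrays, against 4.10, 7.58 and 6.64 on the naive arrays (-3.77, SE 0.81, limma adjusted p = 0.197). Lcat, the enzyme that esterifies cholesterol in lipoproteins, was at 2.53 and 2.34 on the 24 h arrays, against 5.16, 4.90 and 4.58 on the naive arrays (-2.44, SE 0.57). Bmpr1a, a BMP receptor, was at the lowest level on both 24 h arrays, against 3.94, 4.04 and 4.31 on the naive arrays, at least 3.39-fold lower. Its other trained arrays ran from 2.92 to 4.56, all above 24 h. With the lowest level at the pooled 40th percentile, the differences became -2.03 for Scgb1c1, -0.80 for Lcat and -0.075 for Bmpr1a. The homeobox gene Msx1 was -1.98 (SE 0.46) and the LIM-domain gene Csrp1 -1.22 (SE 0.31), both without overlap between 24 h and naive. Ssr3, a subunit of the complex that helps proteins into the endoplasmic reticulum, was -1.84 by 1 probe set (-0.69 with that lowest level) and 0.18 by another.

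Higher genes were fewer and their differences smaller. The 15 with the smallest p all lay above naive on both 24 h arrays, a property that selection by p favours, with limma adjusted p of 0.323 or more. Ino80e, a subunit of a chromatin remodelling complex, was at 7.90 and 8.18 on the 24 h arrays, against 7.02, 6.70 and 6.60 on the naive arrays, 2.41-fold higher (1.27, SE 0.32, adjusted p = 0.323). Oxt, the oxytocin precursor, was at 4.90 and 4.73 on the 24 h arrays, against 3.05, 2.69 and 3.72 on the naive arrays (1.66, SE 0.50). The other trained arrays reached the same heights, with 6.39 to 8.11 for Ino80e and 2.73 to 4.95 for Oxt.

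A few higher genes lay above every other trained array as well, as 1.27% of tested probe sets did. Cspg5, a proteoglycan of neuron surfaces, was at 10.05 and 9.999 on the 24 h arrays, against 9.70, 9.18 and 9.07 on the naive arrays and 8.57 to 9.51 over the other trained arrays, though a second probe set gave 0.05. Cx3cl1, the neuronal chemokine fractalkine, was at 8.98 and 9.24 on the 24 h arrays, against 8.53, 8.60 and 8.39 on the naive arrays, and the neuronal membrane protein gene Ctxn1 at 10.18 on both, against 9.31, 9.81 and 9.73 on the naive arrays. The 2 other probe sets of Cx3cl1 gave -0.05 and 0.48. Sult1a1, a sulfotransferase, was at 7.80 and 7.91 on the 24 h arrays, against 7.18, 7.09 and 7.03 on the naive arrays (0.76, SE 0.26). Dcakd (0.85), Medag (0.75) and Cdipt (1.12) were also above all other trained arrays, and Cdipt, which makes phosphatidylinositol, was 0.48 without naive replicate 1.

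The remaining higher genes overlapped with the other trained arrays. These were the stomach vitamin carrier Cblif (1.66), the actin bundler Espn (1.11), the growth factor Fgf1 (1.06) and the elongation factor Supt5h (0.58, with 0.04 by a second probe set). The calcium channel gene Cacna1c was at 4.15 and 3.92 on the 24 h arrays, against the lowest level on 2 naive arrays and 2.67 on naive replicate 3, and a second probe set gave -0.03. With the lowest level at the pooled 40th percentile, Cacna1c differed by 0.036, Espn by 0.69 and Oxt by 0.73.

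**Figure D5:**
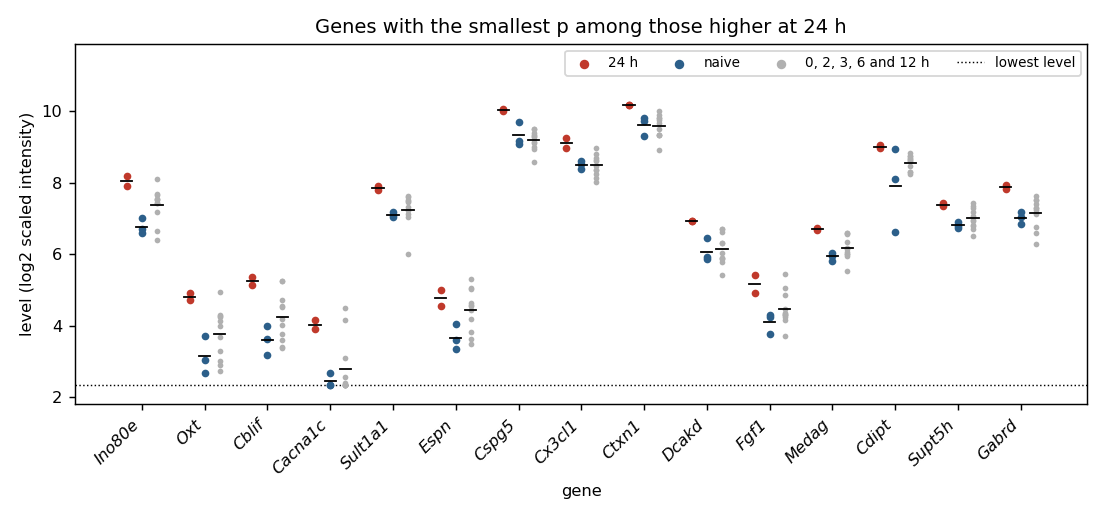
Levels (log2 scaled intensity, y axis) of the 15 genes with the smallest p among those higher at 24 h (x axis) on each array, with 24 h in red, naive in blue and the other trained arrays in grey; bars are means and the dotted line is the lowest level of 2.34. Cspg5 lies at 9.999 and 10.05 in red and 9.07 to 9.70 in blue, and Gabrd at 7.83 and 7.93 in red and 6.85 to 7.17 in blue.

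Among inhibitory receptor genes a pair of subunits stood on opposite sides. Gabrd encodes the delta subunit of GABA-A receptors, which lies outside synapses and carries tonic inhibition in granule neurons. It was at 7.83 and 7.93 on the 24 h arrays, against 7.03, 7.17 and 6.85 on the naive arrays (0.86, SE 0.33, limma adjusted p = 0.9996), and 6.27 to 7.62 over the other trained arrays. Gabra5, whose alpha 5 subunit also sits outside synapses in the hippocampus, was at 6.74 and 7.04 on the 24 h arrays, against 7.69, 7.07 and 8.28 on the naive arrays (-0.79, SE 0.29, limma adjusted p = 0.964). Gabra5 was -0.49 without naive replicate 3. Second probe sets gave 0.60 for Gabrd and -0.59 for Gabra5. Of the 19 tested genes for GABA synthesis, transport and receptors, 11 were below naive (median -0.17), and Gad2, which makes GABA at terminals, was -0.80 (SE 0.40).

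Immediate early genes, which neurons switch on within minutes of activity, had a median near 0. Of 26 tested, 12 were above and 14 below (median -0.01), with 1 higher and 2 lower at an unadjusted p under 0.05, against 1.11% and 2.85% of all tested genes. Without overlap between 24 h and naive, 2 were higher and 5 lower, against 9.68% and 10.2% of all tested genes. Nptx2, a secreted synaptic pentraxin, was at 7.70 and 7.62 on the 24 h arrays, against 7.13, 6.73 and 7.44 on the naive arrays (0.56, SE 0.22). The kinase gene Sgk1 was at 6.01 and 6.58 on the 24 h arrays, against 6.80, 7.11 and 7.27 on the naive arrays (-0.76, SE 0.31), and the transcription factor Klf9 at 8.82 and 8.497, against 9.17, 8.97 and 9.35 on the naive arrays (-0.50, SE 0.24). None of these 3 overlapped. The scaffold gene Homer1 was -0.46, with 5 further probe sets from -0.82 to 0.42, and the AP-1 gene Jun was -0.53 with overlap, with 3 further probe sets from -1.73 to 0.07.

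Sgk1 and Klf9 are also induced by glucocorticoids, the steroid stress hormones. Of 13 tested glucocorticoid responsive genes 6 were above and 7 below naive (median -0.0064), with 1 higher, Sult1a1, and 3 lower at an unadjusted p under 0.05, against 1.11% and 2.85% of all tested genes. The third of the lower ones was Errfi1, a feedback inhibitor of the EGF receptor, at 5.67 and 5.58 on the 24 h arrays, against 6.52, 6.15 and 6.37 on the naive arrays (-0.73, SE 0.23, limma adjusted p = 0.763). Errfi1 lay below all other trained arrays too. Over the 13 genes, 3 were higher and 6 lower than naive without overlap, against 9.68% and 10.2% of all tested genes.

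Most synaptic and signalling lists had medians near 0, while those of glutamate receptors and scaffolds and of pumps leaned below naive. By mean deviation the glutamate list overlapped, at 0.14 and -0.17 on the 24 h arrays, against 0.32, 0.09 and -0.02 on the naive arrays. The pump list did not overlap, at -0.14 and -0.13 on the 24 h arrays, against -0.11, -0.01 and 0.19 on the naive arrays. Glutamate receptor and scaffold genes had 19 of 31 below naive (median -0.17), with the scaffold genes Dlgap4 at -0.76 (SE 0.33) and Dlg4, which encodes PSD-95, at -0.68 (SE 0.34). Synaptic vesicle genes had 19 of 32 below (median -0.03), led by the calcium sensor Syt1 at -0.95 (SE 0.45), endocytosis genes 10 of 18 (-0.03), and calcium, cyclic AMP and MAP kinase genes 27 of 45 (-0.06). For neuropeptides and their processing, 12 of 20 were above naive (median 0.0098), with Trh, the thyrotropin-releasing hormone precursor, at 5.67 and 5.14 on the 24 h arrays, against 4.71, 4.85 and 4.64 on the naive arrays (0.67, SE 0.28), and Tac3, the neurokinin B precursor, at 0.68 (SE 0.38). Trophic factors and receptors had 16 of 26 below (-0.04). Voltage-gated channels had 24 of 42 above (0.02), with the potassium channels Kcnh3 at 0.62 and Kcnq3 at -0.64. Pumps had 9 of 13 below (-0.15), with the calcium pump Atp2b4 at -1.39 (-0.24 by a second probe set, and -0.41 with the lowest level at the pooled 40th percentile), and monoamine and acetylcholine receptors 20 of 35 above (0.05).

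Lists of the basic cell machinery leaned above naive, with small differences, and their mean deviations overlapped between 24 h and naive arrays. For the ribosomal list these were -0.14 and 0.05 on the 24 h arrays, against -0.10, -0.19 and -0.19 on the naive arrays. Cytosolic ribosomal protein genes had 28 of 37 above naive, where 52.4% of all tested genes were, and a median of 0.16, with Rpl14 at 0.50 and Rpsa at 0.39. Without overlap between 24 h and naive, 11 of the 37 were higher, against 9.68% of all tested genes, and 2 lower, against 10.2%. Oxidative phosphorylation genes had 39 of 53 above (median 0.15), with Ndufb3, a complex I subunit, at 0.52 (SE 0.23). Cox8b, a muscle-type cytochrome oxidase subunit, went the other way at 3.46 and 3.24 on the 24 h arrays, against 4.34, 6.41 and 5.71 on the naive arrays (-2.13, SE 0.65, or -1.403 with the lowest level at the pooled 40th percentile). Proteasome and ubiquitin genes had 28 of 39 above (0.09), led by Psmb4 at 0.82 with overlap, and chaperones 23 of 35 (0.07). At an unadjusted p under 0.05, limma had 0 ribosomal, 1 oxidative phosphorylation, 1 proteasome and 0 chaperone genes higher, against 1.11% of all tested genes. Against the other trained arrays the ribosomal list turned, with 23 of 37 below and a median of -0.09. Glycolysis genes had 10 of 18 above naive (0.03), with the bifunctional enzyme Pfkfb1 at 0.78 by 1 probe set and -0.60 by another, and the neuronal glucose transporter Slc2a3 at -0.95.

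Adhesion, matrix and lysosomal lists leaned below. Cell adhesion and polysialylation genes had 26 of 32 below naive (median -0.12), with 0 at an unadjusted p under 0.05 by limma and Cntn1, an axonal contactin, lowest at -0.94 (SE 0.47). Extracellular matrix genes had 24 of 33 below (-0.18), also with 0 at that p. The mean deviation of the matrix list overlapped, at -0.04 and -0.21 on the 24 h arrays, against -0.06, 0.14 and 0.21 on the naive arrays. Those of the adhesion and lysosomal lists did not overlap. Lysosome and antigen presentation genes had 21 of 25 below (-0.15), where 47.6% of all tested genes were, and 3 lower at an unadjusted p under 0.05, against 2.85%: the complement inhibitor Serping1 (-0.91), Cd74 (-1.53, or -0.47 with the lowest level at the pooled 40th percentile) and the lysosomal membrane protein gene Lamp2 (-0.80, with 0.28 by 1 of its other probe sets). Cytoskeleton and neurite growth genes divided evenly (16 above and 16 below), with Stmn4, a microtubule regulator, at -0.60 and the developmental gene Nnat at -0.55.

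Against the other trained arrays, leading genes outside those already described included the following. Pggt1b, a subunit of an enzyme that attaches lipids to proteins, was at 5.61 and 5.76 on the 24 h arrays, against 4.07 to 5.12 with a median of 4.54 on the other trained arrays (1.17, SE 0.31, limma adjusted p = 0.368). It also lay above naive (0.88). Vegfb, an angiogenic growth factor, was at 6.66 and 6.27 on the 24 h arrays, against 4.97 to 6.22 on the other trained arrays (0.80, SE 0.24), and overlapped with naive. Add1, a membrane skeleton protein (0.63), Cops7a, of the COP9 signalosome (0.68), and Oplah, of glutathione turnover (1.01), overlapped with the other trained arrays. Among the lower ones, a probe set annotated as Crp was -1.26 (SE 0.29), but it is of a type shared by a family of sequences, so the gene behind it is uncertain.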

How the data were processed

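The deposited table holds 1 linear intensity per probe set and array (8799 probe sets, 59 of them controls, 16 arrays). How these intensities were background-corrected and scaled, and by which software, is not given in the sources used here; trimmed means ranged from 33.3 to 170 between arrays. Each array was scaled to a 2% trimmed mean of 105, 5.05, the pooled 20th percentile, served as the lowest allowed value, and the deposited intensities so treated were put on a log2 scale. The 6220 probe sets above the pooled 40th percentile (16.9) on at least 2 arrays were tested.

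Genes were named from the platform annotation, with symbols checked by gene identifier: 7006 of 8740 probe sets had 1 symbol, 308 several and 1426 none listed. Of the tested probe sets, 5125 had 1 symbol and covered 3678 genes; lists use the probe set with the highest mean over all arrays.

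limma 3.58.1 in R 4.3.3 was fitted over all 7 groups (lmFit, eBayes with a variance trend), for 24 h minus naive and 24 h minus the equal-weight mean of the other trained hours, with Benjamini-Hochberg adjustment at 0.05 over all tested probe sets. Python 3.11.15, numpy 2.4.6, scipy 1.17.1 and matplotlib 3.10.9 served for the rest. Genes named are the 15 with the smallest p in each direction against naive, 8 each way against the other hours, up to 6 of a list by p, and defining markers. A leading gene of the second comparison is not reported here. Members and lists were chosen with earlier results of these data known. Same-numbered 24 h and naive arrays did not deviate together (r = -0.0034 and -0.14), so replicate numbers were not treated as pairs. The alternatives changed the filter, the lowest level, the scaling, the variance model, the arrays fitted, weights on arrays, the probe sets used per gene, and a block on replicate numbers, and left out each array in turn; a fit without the 2 arrays of lowest correlation to the others was added after seeing the data. The number of arrays limits the precision.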

Additional observations from a re-analysis of the deposited data

How the results depend on the processing

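Against naive, the number of probe sets with an unadjusted p under 0.05 that were higher at 24 h became 91 with scaling to one median, 128 with no filter and 112 with array weights, and the lower ones became 138 with a 60th percentile filter and 111 with 1 probe set per gene. Probe sets lower at an adjusted p of 0.05 became 6 with array weights, 3 with 1 probe set per gene and 4 with only the 24 h and naive arrays. The choroid plexus and ependyma median became -2.04 with the filter at the 60th percentile, which changed the genes counted and not their differences. It left out Kl, Htr2c, Aqp1 and the Prlr probe set used for lists, so the median fell on Igf2. Leaving out 1 array at a time gave 0 to 12 lower at that adjusted p (12 without naive replicate 1), 26 to 142 higher at the unadjusted p (26 without 24 h replicate 1, 38 without 24 h replicate 2, 142 without naive replicate 2) and 141 to 254 lower (141 without naive replicate 3, 142 without 24 h replicate 2).

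Against the other trained hours, no filter gave 1 higher (Fos, 1.13) and 1 lower (Nat1, -0.13) at an adjusted p of 0.05 by limma, and 197 higher at the unadjusted p. Neither Fos nor Nat1 passed in any setting that kept a filter on low values. Array weights gave 20 lower at the adjusted p, with 283 higher and 352 lower at the unadjusted p, and 1 probe set per gene gave 112 lower. Leaving out 1 array at a time gave 0 to 1 lower at the adjusted p and 38 to 166 higher at the unadjusted p (38 without 24 h replicate 1, 80 without 24 h replicate 2).

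Of 94 named genes tracked against naive, 5 took the other sign under some alternative, and of 16 against the other trained hours, 0 did. Pdyn was -0.026 with the replicate block and -0.12 to 0.13 with 1 array left out, Slc1a3 -0.38 to 0.10, Calml4 -0.21 to 0.26, Kl -0.55 to 0.36 and Htr2c -1.57 to 0.035. The cause was not tested. The oligodendrocyte median stayed between -1.0005 and -0.79 under every alternative run. A replicate block, whose numbers do not pair the samples, gave 0 probe sets at an adjusted p of 0.05 against naive by limma, with 223 at an unadjusted p under 0.05. Probe sets near the lowest level give bounds only, since 19.2% and 21.8% of values on the 24 h arrays lay at it, against 18.8% to 21.8% on the naive arrays.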

Other observations

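Probe sets that the annotation does not list, and which are unnamed here, were unevenly spread over the comparisons. They were 865 of the 6220 tested probe sets (13.9%), but 55 of the 203 that were lower at 24 h than over the other trained hours at an unadjusted p under 0.05 by limma (27.1%). They were 12 of the 127 higher ones in that comparison (9.45%) and 34 of the 216 lower ones against naive (15.7%). These are counts with no test.

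Ttr and Enpp2 varied widely between the trained groups, with each difference taken from the same 3 naive arrays. The Ttr difference was -2.26 at 0 h, -3.83 at 2 h, -4.07 at 3 h, -0.30 at 6 h, -4.002 at 12 h and -5.21 at 24 h. For Enpp2 it was -1.31, -2.63, -3.92, -1.44, -2.10 and -3.44 in the same order. Gabrd, by contrast, was -0.07, 0.30, 0.40, 0.01, 0.06 and 0.86, P2rx6 was -0.24, -0.38, -0.78, -0.25, 0.31 and -1.60, and Dock9 was 0.12, -0.01, 0.07, -0.02, -0.30 and -1.59.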
